A study of Rattus norvegicus with 9 samples.

Results

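The miR-17-92 cluster and its paralogs were described in small RNA of exosomes released by rat primary peritoneal macrophages. Members were all rows of the deposited miRNA table named miR-17, miR-18a, miR-19a, miR-19b, miR-20a, miR-20b, miR-25, miR-92a, miR-92b, miR-93 or miR-106b, with any arm. There were 9 such rows among the 201 miRNAs of the table, and miR-19a, miR-19b and miR-20b had no row. The study held 9 libraries in 3 groups of 3. LPS+AS-IV cultures were given 150 µM astragaloside IV, a plant saponin from Astragalus, for 24 h and then LPS at the same dose and time as LPS cultures. LPS cultures received lipopolysaccharide, a bacterial outer membrane component that activates macrophages, at 100 ng/ml for 6 h. Control cultures received 0.1% DMSO for 24 h. Both agents were dissolved in DMSO, whose final concentration is given for Control alone, so solvent and treatment cannot be told apart in comparisons with Control. The cells came from lavage of untreated rats, no sort is named, and the medium contained fetal bovine serum. Whether replicates are separate animals or separate cultures is not stated in the labels, and p-values therefore reflect the spread among these libraries alone, which may be technical.

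miR-17-92 is a polycistron, a single primary transcript from which several hairpins are cut, and MYC is known to activate it. It promotes proliferation and survival of lymphoid and myeloid progenitors and is best known as an oncogenic miRNA cluster. Its paralogs are the miR-106a-363 cluster and the miR-106b-25 cluster, which lies in an intron of the replication gene Mcm7, while miR-92b stands alone. Each hairpin gives a 5p and a 3p arm, and the seed, bases 2 to 8 of the mature miRNA, pairs with target mRNAs, so members with the same seed share most predicted targets.

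The mature sequences are shown because the members differ in seed although they come from shared transcripts. They are the RefSeq sequences (table build GRCr8), in which all 9 members were found, with the seed in capitals. miR-92a-3p, miR-25-3p and miR-92b-3p, from 3 different transcripts, have the seed AUUGCAC.
miR-92a-3p: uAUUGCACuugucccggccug
miR-25-3p: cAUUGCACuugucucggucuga
miR-92b-3p: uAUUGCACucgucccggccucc
miR-17-5p, miR-20a-5p, miR-93-5p and miR-106b-5p have the seed AAAGUGC, that of the growth-promoting miR-17 family.
miR-17-5p: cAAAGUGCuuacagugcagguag
miR-20a-5p: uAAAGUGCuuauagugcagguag
miR-93-5p: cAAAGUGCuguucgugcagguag
miR-106b-5p: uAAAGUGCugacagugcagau
The remaining rows were both arms of miR-18a. miR-19b-3p is shown with them because it had tags in the files of single libraries but no row in the table. miR-19 is the best known oncogenic part of the cluster.
miR-18a-5p: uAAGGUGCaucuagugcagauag
miR-18a-3p: aCUGCCCUaagugcuccuucu
miR-19b-3p: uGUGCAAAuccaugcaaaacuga

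In GRCr8, the 6 hairpins of miR-17-92 lie within 785 bases at chr15:98587848-98588632 on the plus strand, with Mir17 first and Mir92a1 last. The 5 hairpins of miR-106a-363 lie within 871 bases at chrX:137342777-137343647 on the minus strand. They include Mir92a2 and Mir19b2, further copies of miR-92a and miR-19b, and Mir106a, whose RefSeq 5p arm carries the name miR-17-5p. The 3 hairpins of miR-106b-25 lie within 483 bases at chr12:22156641-22157123 on the minus strand, and all 3 are inside the bounds of Mcm7. Mir92b lies at chr2:176931653-176931735 on the minus strand. The build named for the study is Rnor_6.0, so these positions serve only to show which members neighbour each other.

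Reads in the miRNA table were 15426 to 546599 in LPS+AS-IV, 25483 to 65715 in LPS and 30861 to 75528 in Control libraries, of 3484099 to 9527483 assigned reads per library. LPS+AS-IV 3, with 546599 table reads, was far deeper than the other 8 libraries. No replicate pair held identical values. The macrophage label was set against myeloid miRNAs (miR-223, miR-142 and miR-146a, all 3 with rows), which held 0.628 to 6.24% of table reads in LPS+AS-IV, 1.09 to 2.94% in LPS and 1.81 to 4.65% in Control. Lymphocyte miRNAs (miR-150, miR-181a and miR-155, all 3 with rows) held more of the table reads, 10.0 to 19.1%, 15.2 to 17.6% and 12.3 to 16.2% in the same order. The table leaves out unequal parts of these markers. In the recount by sequence described below, 11.8% of miR-223-3p, 46.5% of miR-146a-5p and 18.1% of miR-155-5p reads were assigned as mature (libraries weighted equally). The sums therefore do not rank the cell types. Epithelial and mesothelial miRNAs (4 of 6 with rows) held at most 0.137% in any library. Liver and serum miRNAs (miR-122 and miR-192, both with rows) held 0.465 to 0.558% in LPS+AS-IV, 0.320 to 1.02% in LPS and 0.143 to 0.356% in Control.

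miR-92a-3p made up most member reads. The 9 rows together held 10.6% ± 3.73 of table reads in LPS+AS-IV, 10.7% ± 1.21 in LPS and 8.80% ± 0.554 in Control (SD, n = 3 each). Of those reads, miR-92a-3p held 91.0% ± 1.55 in LPS+AS-IV, 89.1% ± 4.40 in LPS and 87.7% ± 1.84 in Control. By seed, AUUGCAC held 92.7% of all member reads of the 9 libraries and AAAGUGC held 7.15%. The rows of miR-92a-3p, miR-93-5p, miR-25-3p and miR-92b-3p had reads in all 9 libraries, and these 4 were the members that passed the filter on low counts, among 94 miRNAs tested. miR-18a-3p, miR-17-5p, miR-106b-5p, miR-20a-5p and miR-18a-5p had table reads in 1 to 4 libraries each and were not tested on the table. Levels are given in CPM with TMM scaling, and levels of different miRNAs also carry the cloning bias of small RNA libraries. In bulk exosome RNA, fewer cells of a type and less RNA per cell cannot be told apart.

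miR-92a-3p, the last miRNA of miR-17-92 and abundant in blood cells and endothelium, was among the 5 most abundant miRNAs of the table in every library and the most abundant in LPS+AS-IV 1. It held 13.3, 6.19 and 9.69% of table reads in LPS+AS-IV, 11.4, 8.79 and 8.62% in LPS and 7.13, 7.89 and 8.14% in Control. A 95% Wilson interval extends at most 0.536 percentage points to either side. Its level was 148067, 64925 and 105849 CPM for LPS+AS-IV, 104635, 98867 and 85155 CPM for LPS and 64942, 72759 and 82664 CPM for Control. Every LPS library lay above every Control library, while the LPS+AS-IV libraries held both the lowest and the highest level of the 9.

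miR-25-3p, which shares its seed with miR-92a-3p but comes from the Mcm7 intron, was far less abundant. Its level was 2092, 1402 and 1073 CPM for LPS+AS-IV, 2519, 3989 and 2581 CPM for LPS and 2915, 5526 and 1841 CPM for Control. Every LPS+AS-IV library was below every LPS library, and LPS+AS-IV 1 was above Control 3. miR-92b-3p, from its own locus and known for its expression in neural progenitors, stood at 3534, 1296 and 909 CPM for LPS+AS-IV, 2159, 51.4 and 112 CPM for LPS and 2202, 1583 and 13.4 CPM in Control. The 3 low values were 3 and 7 reads in LPS 2 and LPS 3 and 1 read in Control 3, and all pairs of groups overlapped.

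miR-93-5p, also from the Mcm7 intron, was the most abundant member with the miR-17 seed. Its level was 6203, 4970 and 8368 CPM for LPS+AS-IV, 720, 7755 and 11689 CPM for LPS and 3498, 3614 and 7607 CPM for Control. The LPS group held both its lowest and its highest library, so all pairs of groups overlapped.

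**Figure D1:**
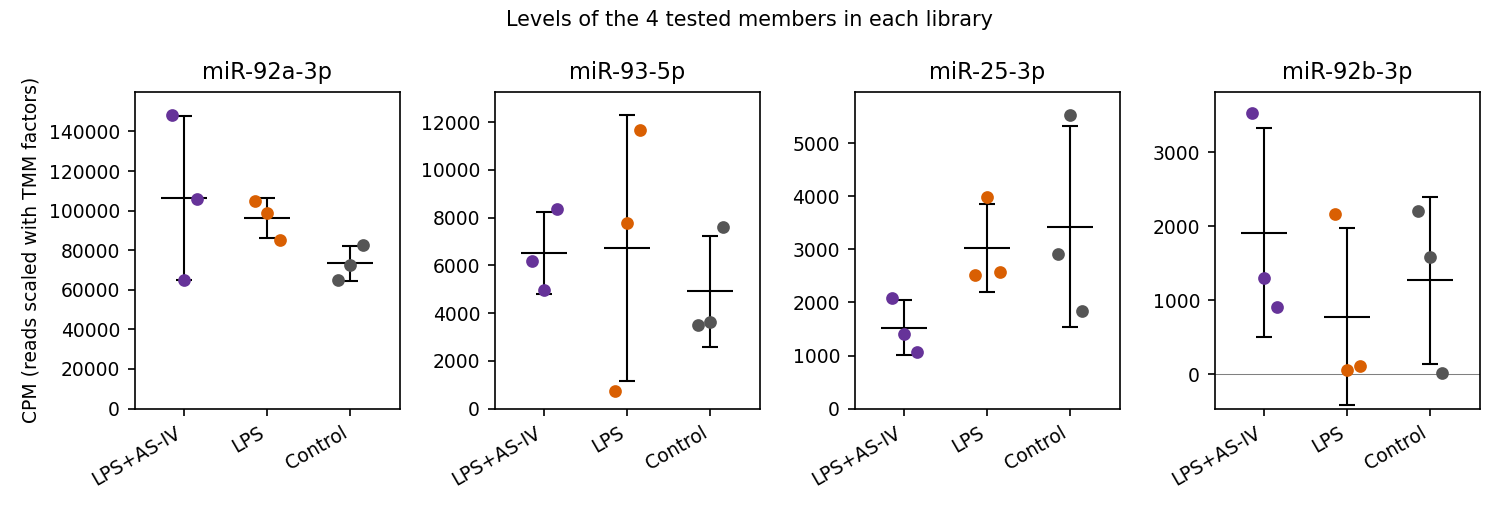
Level of each of the 4 tested members, in CPM with TMM scaling on linear axes (a separate axis for each miRNA), for the LPS+AS-IV, LPS and Control libraries. Points are libraries 1 to 3 from left to right, and bars give the mean ± SD (n = 3). For miR-92a-3p the 3 LPS points, from 85155 to 104635 CPM, sit above the 3 Control points, and for miR-25-3p the 3 LPS+AS-IV points sit below the 3 LPS points.

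LPS against Control asks what activation by LPS does to these exosomal miRNAs. None of the 4 tested members was called, where 1.06% of the 94 tested miRNAs were (edgeR quasi-likelihood test, Benjamini-Hochberg adjusted p under 0.05). miR-92a-3p had a log2 fold change of 0.39 ± 0.29 (SE, edgeR adjusted p = 0.854), averaging 96219 ± 10007 CPM in LPS, against 73455 ± 8881 CPM in Control (SD, n = 3 each). Groups that do not overlap were common in this comparison, at 19.1% of tested miRNAs, and with all assigned reads or with mature and hairpin tags summed the LPS and Control values of miR-92a-3p did overlap. miR-93-5p had 0.45 ± 0.85, miR-25-3p -0.18 ± 1.05 and miR-92b-3p -0.72 ± 2.01 (log2 fold change ± SE, edgeR adjusted p = 0.964 each). At an unadjusted p under 0.05, 0 members and 6.38% of tested miRNAs passed, and DESeq2 called 0 members and 3.19% of tested miRNAs. The SEs of the 3 less abundant members were 0.85 to 2.01 on the log2 scale. Changes of about that size were thus not detectable here, and larger ones could also be missed.

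Pretreatment with astragaloside IV was tested in LPS+AS-IV against LPS. None of the 4 members was called, and 0% of the tested miRNAs were (edgeR). miR-25-3p had a log2 fold change of -0.997 ± 1.06 (SE, edgeR adjusted p = 0.963), averaging 1522 ± 520 CPM in LPS+AS-IV, against 3030 ± 831 CPM in LPS (SD, n = 3 each). These groups did not overlap, nor did those of 7.45% of tested miRNAs. With all assigned reads as library size the groups overlapped, the fold change of miR-25-3p was 0.01 and the median of all tested miRNAs was 1.502, against 0.19 with TMM. miR-92a-3p had 0.14 ± 0.29, miR-92b-3p 1.31 ± 2.03 (edgeR adjusted p = 0.963 each) and miR-93-5p -0.05 ± 0.85 (edgeR adjusted p = 0.978). At an unadjusted p under 0.05, 0 members and 3.19% of tested miRNAs passed, and DESeq2 called 0 members and 1.06% of tested miRNAs.

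LPS+AS-IV against Control called none of the 4 members, against 2.13% of the tested miRNAs (edgeR). miR-92a-3p had a log2 fold change of 0.53 ± 0.29 (SE, edgeR unadjusted p = 0.0856, adjusted p = 0.835), averaging 106280 ± 41573 CPM in LPS+AS-IV, against 73455 ± 8881 CPM in Control (SD, n = 3 each). miR-25-3p had -1.17 ± 1.07, miR-93-5p 0.41 ± 0.85 and miR-92b-3p 0.59 ± 2.01 (edgeR adjusted p = 0.981 each). All 4 members overlapped between these groups, where 10.6% of tested miRNAs did not. At an unadjusted p under 0.05, 0 members and 3.19% of tested miRNAs passed, and DESeq2 called 0 members and 2.13% of tested miRNAs. The 3 comparisons share libraries, so they are not independent of each other.

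Erythroid miRNAs (miR-144, miR-451 and miR-486, all 3 with rows) held 3.04 to 3.54% of table reads in LPS+AS-IV, 2.72 to 3.97% in LPS and 4.07 to 4.78% in Control. Their summed share was thus lower in every LPS library than in every Control library. Most of it was miR-451-5p, with 928, 1782 and 1764 reads in LPS and 1707, 919 and 3004 in Control. miR-486 had 83, 8 and 0 reads in LPS and 287, 336 and 610 in Control. The erythroid miR-144-3p had at most 1 read in any library. The endothelial and platelet miR-126a held 0.415 to 1.23% in LPS+AS-IV, 0.195 to 0.472% in LPS and 0.745 to 1.38% in Control. Mesenchymal miRNAs (5 of 6 with rows) held 0.201 to 0.756%, 0.137 to 0.371% and 0.980 to 1.57% in the same order. Both, like the erythroid sum, were lower in every LPS library than in every Control library. In this comparison, 19.1% of tested miRNAs did not overlap in CPM. The part of these cell types in the level of miR-92a-3p was not tested.

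The files of single libraries showed that the table held a minority of the miR-92a-3p reads. Each distinct tag there is assigned once, as mature miRNA, miRNA hairpin, piRNA or Rfam family, and for members the table holds exactly the reads of mature tags. Tags were therefore recounted by sequence, taking every tag that begins with the first 18 bases of a RefSeq mature miRNA, whatever its assignment. Tags that begin at another base are not in this recount. This gave 263804 reads of miR-92a-3p over the 9 libraries, against 84887 in the table. The share of these reads assigned as mature was 45.8, 28.9 and 33.1% in LPS+AS-IV, 37.3, 28.7 and 31.996% in LPS and 29.01, 26.96 and 29.7% in Control. Hairpin assignments held 35.2 to 52.2% and Rfam assignments 17.6 to 27.6% across the 9 libraries. Recounted, miR-92a-3p was the most abundant miRNA in 8 of the 9 libraries.

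The tags differed at the 3′ end. The leading tags are shown against the stretch of each RefSeq hairpin (GRCr8) that begins with the mature miRNA. Capitals mark bases beyond the last base of the RefSeq mature sequence, and tags are written as DNA.
Mir92a1 hairpin: uauugcacuugucccggccugUUGAGU
Mir92a2 hairpin: uauugcacuugucccggccugAGGAAG
tag 1, hairpin: tattgcacttgtcccggcctgT
tag 2, mature: tattgcacttgtcccggcctgTAA
tag 3, Rfam: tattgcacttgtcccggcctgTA
tag 4, mature: tattgcacttgtcccggcctgTAT
tag 5, Rfam: tattgcacttgtcccggcctgTT
tag with the Mir92a2 end: tattgcacttgtcccggcctgA
Tag 1, 22 nt long, had 119438 reads, 45.3% of the recounted total, and matches the Mir92a1 hairpin over its whole length. It carries a score of 1 in the files and is outside the table. Tag 2, 24 nt long with 36640 reads, carries 2 bases that do not match the hairpin and is the leading tag inside the table. Tag 3 had 28358 reads, tag 4 had 21303 and tag 5, which matches the Mir92a1 hairpin, had 13505. A tag that ends exactly where the RefSeq mature sequence ends had 1318 reads, 0.500% of the total.

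Reads whose 3′ end runs past the RefSeq end and still matches a hairpin held 48.5% ± 8.21 of miR-92a-3p in LPS+AS-IV, 51.2% ± 3.14 in LPS and 53.4% ± 1.48 in Control (SD, n = 3 each). A tail is here 2 or more final bases after the longest unbroken match to either hairpin, and later bases can match again. Reads with a tail held 47.8, 27.2 and 33.1% in LPS+AS-IV, 33.7, 33.6 and 31.1% in LPS and 30.3, 29.3 and 32.9% in Control. LPS+AS-IV 1 had the highest and LPS+AS-IV 2 the lowest share, so LPS+AS-IV spanned both other groups. With tails of 1 base counted as well, 68.4 to 78.3% of the tail bases were A and 14.0 to 25.2% were T. The origin of these bases was not tested. Shares with a tail of 2 or more bases were ranked for 57 miRNAs with at least 1000 recounted reads. This set leaves out let-7a-5p, let-7b-5p and miR-150-5p, which are abundant in the table. With libraries weighted equally, 33.2% of miR-92a-3p reads had such a tail. That was the fifth highest share among the 57 ranked miRNAs, whose median was 1.09%. miR-92b-3p followed as the sixth with 30.8%, while miR-93-5p had 0.0550%. miR-25-3p had 4.02%, nearly all from LPS 3 with 35.3%, and 0.113% without that library.

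**Figure D2:**
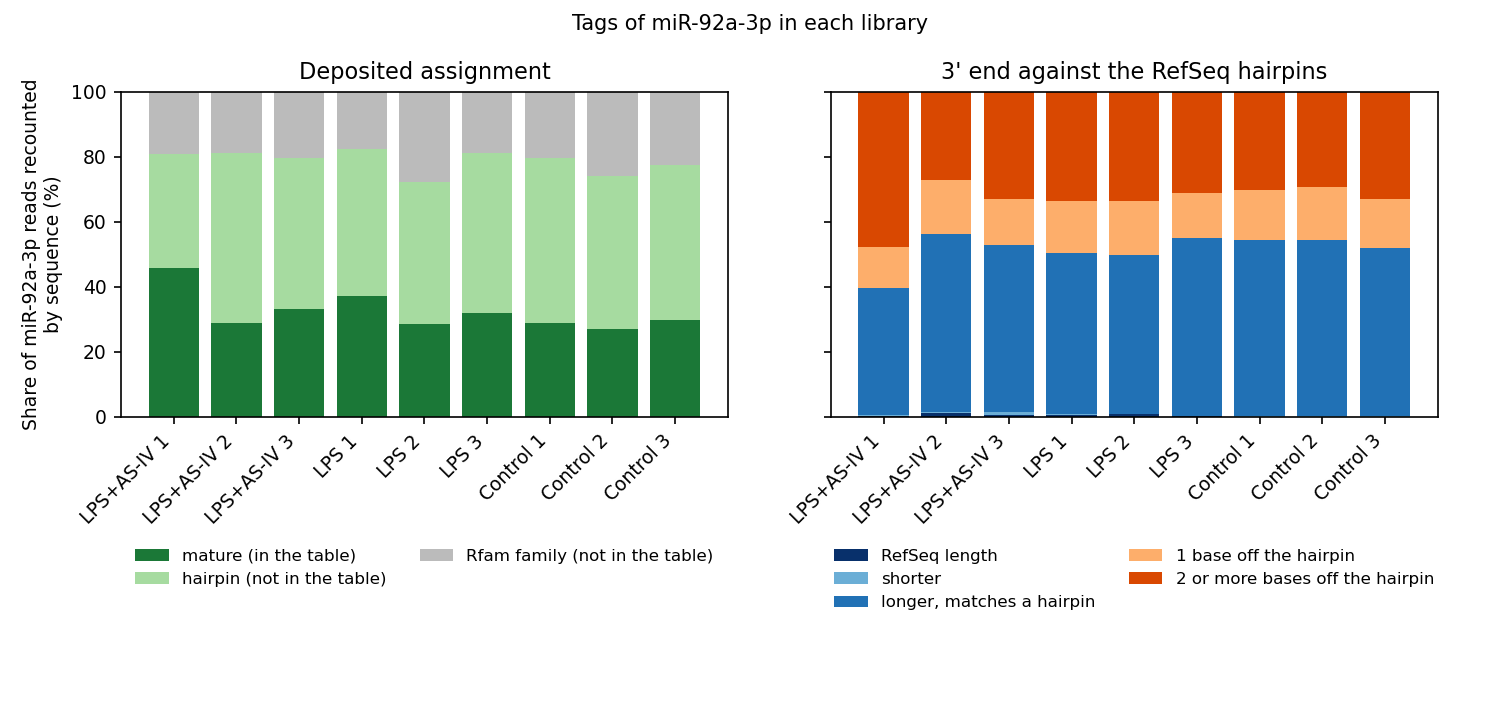
Share of miR-92a-3p reads recounted by sequence (%, linear axes) in each library, by deposited assignment (left) and by the 3′ end against the RefSeq hairpins (right). Bars are single libraries and sum to all recounted reads. Mature assignments hold 26.96 to 45.8% of the reads, ends that run past the RefSeq end and match a hairpin hold 39.2 to 54.8%, and the RefSeq length holds at most 1.25%.

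The share of tag 2 among the mature miR-92a-3p reads of the table was 31.1, 33.7 and 41.4% in LPS+AS-IV, 46.5, 52.5 and 49.9% in LPS and 54.3, 30.1 and 52.6% in Control. Every LPS+AS-IV library was below every LPS library, while Control covered the range of both. LPS+AS-IV averaged 35.4% ± 5.37 and LPS 49.6% ± 3.03 (SD, n = 3 each, exact two-sided permutation p = 0.1, adjusted p = 0.3). An exact test of 3 against 3 cannot go below 0.1. The exact permutation test gave p = 0.4 for LPS+AS-IV against Control (adjusted p = 0.6) and p = 1 for LPS against Control (adjusted p = 1), with 45.7% ± 13.5 in Control. Among all recounted reads, the tag held 14.2, 9.73 and 13.7% in LPS+AS-IV, 17.3, 15.1 and 15.97% in LPS and 15.7, 8.12 and 15.6% in Control. LPS+AS-IV and LPS again did not overlap, and Control 2 was the lowest library. The difference of LPS+AS-IV from LPS was -3.57 percentage points there, against -14.2 among mature reads.

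The bases past the RefSeq end also tell apart the 2 loci of miR-92a-3p. Tags with the Mir92a2 end held 0.512, 1.13 and 1.77% of tags specific to either locus in LPS+AS-IV, 4.10, 0.0710 and 5.83% in LPS and 3.45, 2.18 and 1.29% in Control, and 1.98% of all such reads. In every library most locus-specific ends were thus those of Mir92a1, the copy in miR-17-92. The LPS group held both the lowest and the highest share, with 7 reads of the Mir92a2 end beside 9848 of the Mir92a1 end in LPS 2, and 530 beside 8560 in LPS 3. An A or a T added without a template gives the same tag as a hairpin, so the shares count ends and not transcripts of either locus.

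The other miRNAs of miR-17-92 were far scarcer, and most of their reads were outside the table. The 10 mature names of the cluster other than miR-92a had 207 table reads together and 2250 recounted reads, the recounted ones in 8 of the 9 libraries. Recounted miR-92a-3p exceeded all of them together by 34.8-, 92.1- and 154-fold in LPS+AS-IV, by 118- and 173-fold in LPS 1 and LPS 2 and by 93.4-, 89.5- and 39.2-fold in Control. LPS 3 had 16599 reads of miR-92a-3p and none of the others. Reads of miRNAs cut from the same primary transcript thus differed by more than an order of magnitude in each library.

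miR-17-5p, the first miRNA of the cluster and a repressor of cell cycle inhibitors, had table reads of 1, 0 and 3 in LPS+AS-IV, 0 in all 3 LPS libraries and 37, 1 and 0 in Control. Recounted, it had 1, 1 and 1039 reads in LPS+AS-IV, 0 in each LPS library and 111 and 69 reads in Control 1 and Control 2. Control 3 had 3 tags with 131, 63 and 1 reads. Most of the recounted reads were 1 tag that matches the Mir17 hairpin past the RefSeq end.
leading tag, hairpin: caaagtgcttacagtgcaggtagT
second tag, Rfam: caaagtgcttacagtgcaggtatT
further tag, hairpin: caaagtgcttacagtgcaggtagA
The leading tag had 1137 reads, of which 1035 were in LPS+AS-IV 3, and no tag carried an end specific to Mir106a. The recounted level was 40.8, 8.76 and 1087 CPM in LPS+AS-IV, 0 in LPS and 1437, 1216 and 1509 CPM in Control. With these tags, every Control library was above every library of the other groups. Of the 100 miRNAs tested in the recount, 18% did not overlap in LPS against Control and 13% in LPS+AS-IV against Control. A tag of LPS+AS-IV 1 with 30 reads, assigned to the hairpin, begins 1 base earlier and is not in the recount. With mature and hairpin assignments summed (0 or 1 mismatch), the level was 1230, 7.32 and 1187 CPM for LPS+AS-IV, 0 for LPS and 1338, 1206 and 505 CPM for Control, so LPS+AS-IV and Control overlapped. The log2 fold change of LPS+AS-IV against Control was -0.33 ± 1.99 in that count and -1.85 ± 2.02 in the recount (SE, edgeR adjusted p = 0.993 and 0.966 in that order). A count of 0 allows up to 3 reads, which in the recount averaged 44.6 CPM over the LPS libraries. In that count, the mean of miR-17-5p in Control was 31.1-fold this floor, a bound that covers counting error only. This bound does not carry over to the table, where Control averaged 276 CPM with 0 reads in Control 3. miR-17-5p passed the filter on low counts only in the recount and with 0 or 1 mismatch. It passed through the groups where it has reads, so its difference from LPS and the p-values that follow are a description only. It was not called in the recount, with an unadjusted p of 0.00688 and an adjusted p of 0.408 for LPS against Control (edgeR, 100 miRNAs). In that fit 0% of miRNAs were called, 7% had an unadjusted p under 0.05 and 18% did not overlap. In LPS+AS-IV against LPS the unadjusted p was 0.0144 and the adjusted p 0.677 (edgeR). There, 0% of miRNAs were called, 6% had an unadjusted p under 0.05 and 9% did not overlap. The mean of LPS+AS-IV in the recount was 8.49-fold the mean floor of the LPS libraries. That bound rests on LPS+AS-IV 3, since the other LPS+AS-IV libraries had 1 recounted read each. The Control reads came from 4, 2 and 3 distinct tags, of which the largest held 41, 68 and 131 reads.

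miR-20a-5p, of the same seed family and cluster, had 1, 0 and 0 table reads in LPS+AS-IV, 0 in LPS and 0, 16 and 0 in Control. Recounted, it had 112, 119 and 0 reads in LPS+AS-IV, 32, 0 and 0 in LPS and 0, 32 and 221 in Control. Each group held libraries without a read. Its log2 fold change was -1.54 ± 2.68 for LPS against Control, 2.84 ± 2.80 for LPS+AS-IV against LPS and 1.30 ± 2.65 for LPS+AS-IV against Control (SE, edgeR adjusted p = 0.987, 0.955 and 0.966 in that order). Its leading tag ends in the same way as that of miR-17-5p.
miR-20a-5p leading tag, hairpin: taaagtgcttatagtgcaggtagT
Of the other mates, miR-18a-3p, the passenger arm of miR-18a, had table reads only in LPS, with 33 in LPS 1, 114 in LPS 2 and 0 in LPS 3. The 114 reads of LPS 2 were 1 tag. miR-18a-5p had 1 table read, in LPS 1, and 16 recounted reads in LPS+AS-IV 1. miR-19b-3p had recounted reads in LPS+AS-IV 2 with 40 and in Control 3 with 112, all assigned to a hairpin, and miR-19a had none.

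**Figure D3:**
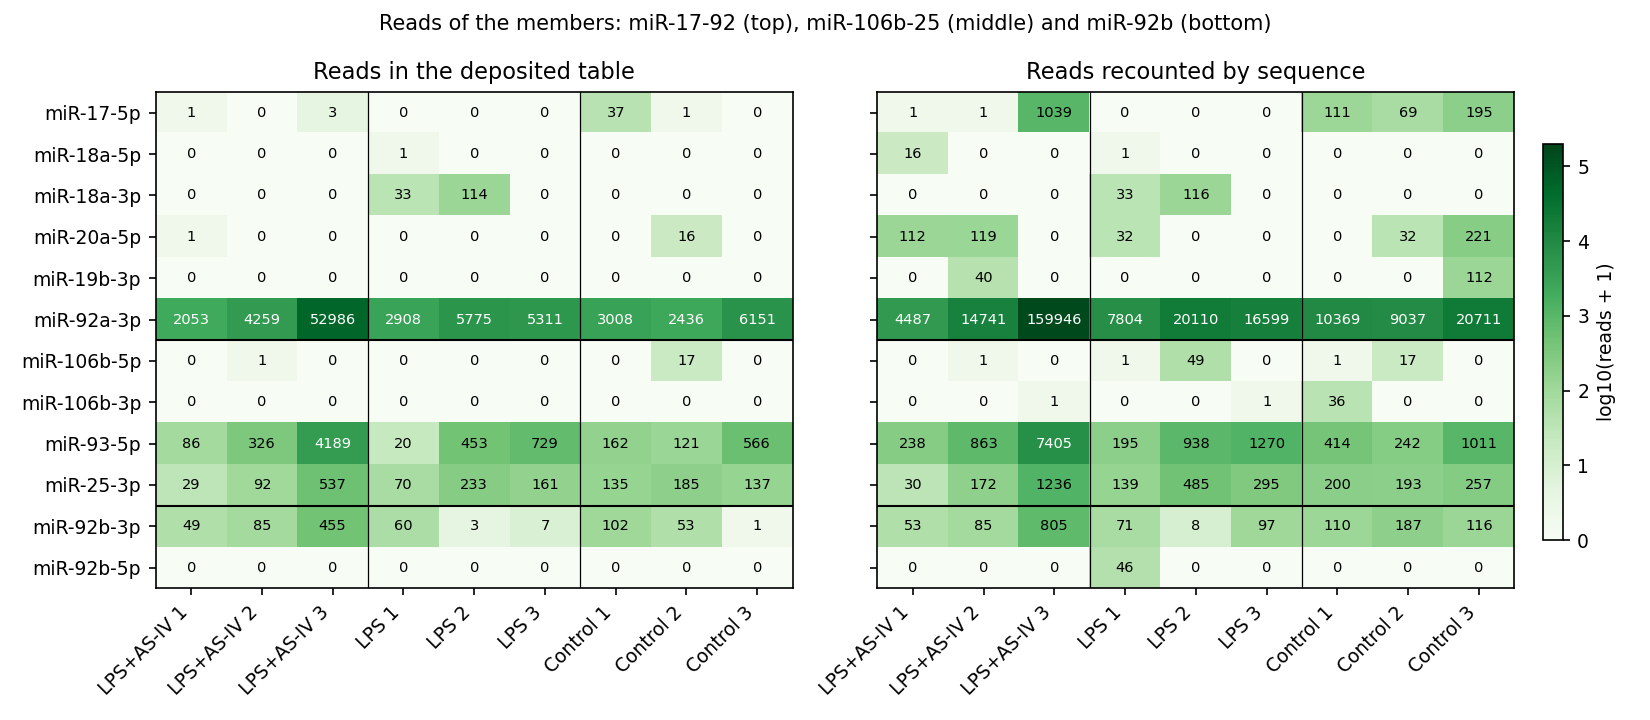
Reads of each mature miRNA of these loci that had tags, by library (miR-93-3p, with 1 read, is not drawn), in the deposited table (left) and recounted by sequence (right). Colour gives log10(reads + 1) and the numbers are reads, with lines between the miR-17-92, miR-106b-25 and miR-92b loci. miR-92a-3p has 2053 to 52986 table reads and 4487 to 159946 recounted reads, while miR-17-5p has 0 in each LPS library on both sides.

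The miR-106b-25 mates were measured well enough to set against each other. In the table, the log2 ratio of miR-25-3p to miR-93-5p reads was -1.57, -1.83 and -2.96 in LPS+AS-IV, 1.81, -0.96 and -2.18 in LPS and -0.26, 0.61 and -2.05 in Control. LPS 1 stood out with 70 reads of miR-25-3p and 20 of miR-93-5p. This was the only pair of mates with table reads in all 9 libraries. The mean was -2.12 ± 0.74 in LPS+AS-IV, -0.44 ± 2.04 in LPS and -0.57 ± 1.36 in Control (SD, n = 3 each). Exact two-sided permutation tests gave p = 0.3 for LPS+AS-IV against LPS and against Control (adjusted p = 0.45 each) and p = 1 for LPS against Control (adjusted p = 1).

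The tags of miR-93-5p show where most of its reads in LPS 1 were assigned. Its RefSeq-length tag is in the table, while a shorter tag and a longer tag that both match the hairpin are not.
RefSeq length, mature: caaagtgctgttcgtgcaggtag
shorter tag, hairpin: caaagtgctgttcgtgcaggt
longer tag, hairpin: caaagtgctgttcgtgcaggtagT
The RefSeq-length tag had 85, 172 and 4171 reads in LPS+AS-IV, 1, 298 and 729 in LPS and 162, 121 and 565 in Control. The shorter tag had 175 reads in LPS 1 and 73 to 1696 in the other libraries. In LPS 1, most reads of miR-93-5p were thus the shorter tag, outside the table. Recounted, miR-93-5p stood at 9721, 7558 and 7749 CPM for LPS+AS-IV, 4840, 9490 and 12331 CPM for LPS and 5361, 4263 and 7824 CPM for Control, again overlapping between all groups. The 326 table reads of LPS+AS-IV 2 compare with 218 mature reads in the recount, which thus leaves out some table reads. Its log2 fold changes in the recount were 0.61 ± 0.45 for LPS against Control, -0.09 ± 0.45 for LPS+AS-IV against LPS and 0.52 ± 0.45 for LPS+AS-IV against Control (SE, edgeR adjusted p = 0.920, 0.955 and 0.966 in that order).

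miR-25-3p was assigned as mature in its RefSeq-length tag, and its further reads were spread over several tags.
RefSeq length, mature: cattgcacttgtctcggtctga
second tag, hairpin: cattgcacttgtctcggtctgt
tag of LPS 3, Rfam: cattgcacttgtctcggtctgaTT
The RefSeq-length tag had 1579 reads and the second 874, of which 694 were in LPS+AS-IV 3, over 5 libraries in all. A tag of 20 nt had 290 reads over all 9 libraries and a tag of 21 nt had 123. The tag of LPS 3 had 104 reads, of 295 recounted there, and was in no other library. Recounted, miR-25-3p stood at 1225, 1506 and 1293 CPM for LPS+AS-IV, 3450, 4907 and 2864 CPM for LPS and 2590, 3400 and 1989 CPM for Control. Every LPS+AS-IV library was below every library of both other groups. Set against LPS, LPS+AS-IV had a log2 fold change of -1.48 ± 0.67 (SE, edgeR unadjusted p = 0.0484, adjusted p = 0.724). Of the 100 miRNAs in that comparison 0% were called, 6% had an unadjusted p under 0.05 and 9% did not overlap. LPS against Control was 0.49 ± 0.66 (SE, edgeR adjusted p = 0.987), where the table gave -0.18. Set against Control, LPS+AS-IV had -0.99 ± 0.67 (SE, edgeR adjusted p = 0.966), where 0% were called, 2% had an unadjusted p under 0.05 and 13% did not overlap.

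The recounted log2 ratio of miR-25-3p to miR-93-5p was -2.99, -2.33 and -2.58 in LPS+AS-IV, -0.49, -0.95 and -2.11 in LPS and -1.05, -0.33 and -1.98 in Control. Every LPS+AS-IV library had a lower ratio than every other library, which for LPS rests on the 104-read tag of LPS 3. Without it the ratio of LPS 3 was -2.73, lower than in 2 of the 3 LPS+AS-IV libraries, so the groups overlapped. With that tag, the mean was -2.63 ± 0.33 in LPS+AS-IV, -1.18 ± 0.83 in LPS and -1.12 ± 0.83 in Control (SD, n = 3 each). Exact two-sided permutation tests gave p = 0.1 for LPS+AS-IV against LPS and against Control, the lowest that 3 against 3 allows (adjusted p = 0.15 each), and p = 0.8 for LPS against Control. Without the tag, LPS+AS-IV against LPS had a difference of -1.24 (exact permutation p = 0.3), and with 0 or 1 mismatch it was -1.30 (exact permutation p = 0.3). Against Control, LPS+AS-IV had p = 0.1 in the exact permutation test with 0 or 1 mismatch, and p = 0.3 on the table and with the column headed exp. The tag of LPS 3 does not enter that comparison. A ratio within a library does not depend on library size, and it does not say which of the mates moved. miR-106b-5p, the third mate, had at most 49 recounted reads in any library, and miR-106b-3p at most 36.

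**Figure D4:**
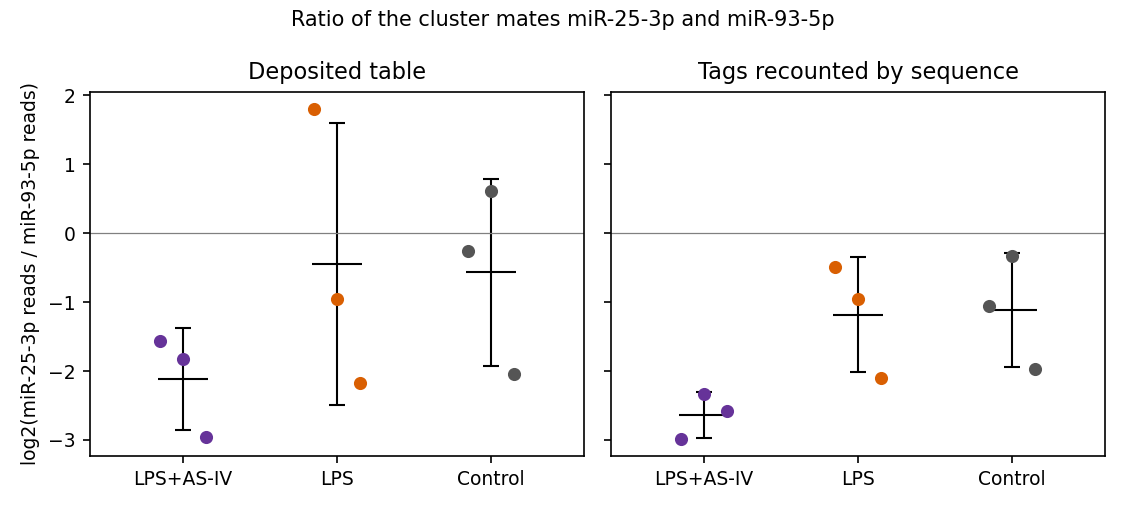
log2 ratio of miR-25-3p reads to miR-93-5p reads in each library, from the table (left) and from tags recounted by sequence (right). Points are libraries 1 to 3 from left to right within LPS+AS-IV, LPS and Control, and bars give the mean ± SD (n = 3). In the recount, the 3 LPS+AS-IV points lie at -2.33 or lower and all other points at -2.11 or higher, and the point at -2.11, LPS 3, lies at -2.73 without 1 tag found only there.

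miR-92b-3p differed in which tags made up its reads. The RefSeq-length tag had 49, 85 and 0 reads in LPS+AS-IV, 59, 3 and 7 in LPS and 101, 52 and 1 in Control. The 455 table reads of LPS+AS-IV 3 were a single tag with 4 added bases, which had 1 read elsewhere.
RefSeq length, mature: tattgcactcgtcccggcctcc
tag of LPS+AS-IV 3, mature: tattgcactcgtcccggcctccATTT
Recounted, miR-92b-3p stood at 2165, 744 and 842 CPM for LPS+AS-IV, 1762, 80.9 and 942 CPM for LPS and 1424, 3294 and 898 CPM for Control. The 116 reads of Control 3 compare with 1 read in the table, and the groups overlapped in all comparisons. Its log2 fold change for LPS+AS-IV against Control was -0.59 ± 1.23 in the recount and 0.59 ± 2.01 on the table (SE, edgeR), so its sign depended on which tags were counted. For LPS against Control it was -1.01 ± 1.24 and for LPS+AS-IV against LPS 0.43 ± 1.23 in the recount (SE, edgeR adjusted p = 0.987 and 0.955 in that order).

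For miR-92a-3p itself, the recount gave 183272, 129105 and 167368 CPM for LPS+AS-IV, 193717, 203463 and 161168 CPM for LPS and 134259, 159204 and 160278 CPM for Control. LPS stayed above Control in every library, with a gap between LPS 3 and Control 3 of less than 1000 CPM, while LPS+AS-IV now lay within the span of the other groups apart from LPS+AS-IV 2 at the low end. The log2 fold change was 0.30 ± 0.18 for LPS against Control, -0.22 ± 0.18 for LPS+AS-IV against LPS and 0.08 ± 0.18 for LPS+AS-IV against Control (SE, edgeR adjusted p = 0.745, 0.955 and 0.966 in that order). The value of 0.53 on the table for LPS+AS-IV against Control was thus 0.08 in the recount, and that for LPS+AS-IV against LPS was 0.14 on the table and below 0 in the recount.

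**Figure D5:**
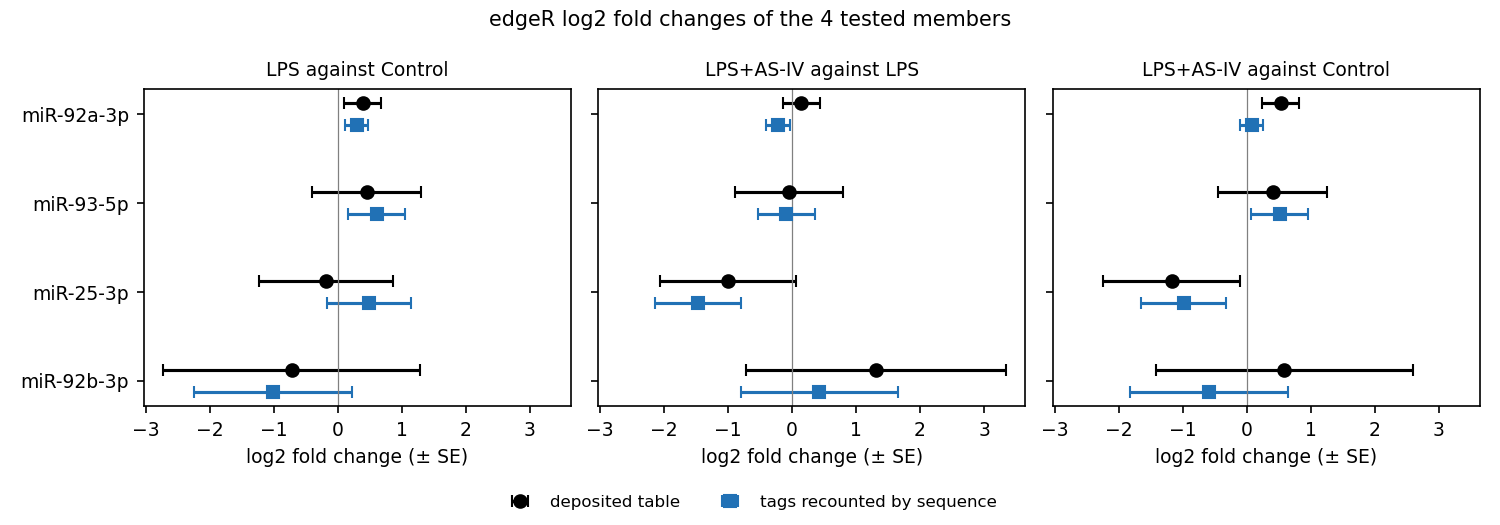
edgeR log2 fold changes (± SE) of the 4 tested members in each comparison, from the deposited table (circles) and from tags recounted by sequence (squares). Values right of 0 are higher in the group named first. miR-25-3p lies left of 0 in both comparisons of LPS+AS-IV, at -0.997 and -1.17 on the table and -1.48 and -0.99 in the recount, and each SE is smaller in the recount than on the table.

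Among 43 miRNAs with table reads in all 9 libraries, those whose log2 CPM followed miR-92a-3p most closely were miR-423-3p (Pearson r = 0.83, Spearman rho = 0.87), miR-320-3p (r = 0.71, rho = 0.57) and miR-191a-5p (r = 0.66, rho = 0.68), over 9 libraries that span the 3 groups. The members that share its seed or cluster type were not among them. miR-92b-3p had r = 0.10 (rho = 0.12) and miR-93-5p r = 0.02 (rho = 0.32). miR-25-3p had r = -0.18 (rho = -0.22). All these correlations share library size and scaling and are a description only. They rest on table reads, which leave out most reads of miR-93-5p in LPS 1 and of miR-92b-3p in Control 3. They therefore do not settle whether these members follow miR-92a-3p. Of the other miRNAs of these clusters and seeds, miR-18b, miR-106a, miR-363, miR-32 and miR-367, only miR-363-3p had table reads, with 7, 64 and 0 in LPS+AS-IV, 0 in LPS and 0, 0 and 2 in Control.

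miRNAs that MYC is known to repress were counted beside the members that it activates. The list had 32 rows in the table, of which 20 were tested, and it shares miR-150 with the lymphocyte and miR-146a with the myeloid markers. In LPS against Control, 8 of the 20 had a fitted value above 0, against 47.9% of all tested miRNAs, with a median log2 fold change of -0.12 against -0.04. In LPS+AS-IV against LPS, 14 did, against 60.6%, with a median of 0.20 against 0.19. In LPS+AS-IV against Control, 16 did, against 57.4%, with a median of 0.31 against 0.21. The only member of the list that was called was let-7a-5p, higher in LPS and in LPS+AS-IV than in Control, and with each tag given to the same miRNA in all libraries 0 of the 94 miRNAs were called in any comparison (edgeR). let-7b-5p, the most abundant of the list, had log2 fold changes of -0.04 ± 0.29, 0.27 ± 0.29 and 0.23 ± 0.29 in the same order of comparisons (SE, edgeR adjusted p = 0.964, 0.963 and 0.981). let-7i-5p and miR-150-5p, which follow in reads, had adjusted p-values of at least 0.963 (edgeR).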

How the data were processed

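Small RNA libraries were sequenced on the BGISEQ-500, per the labels' protocols. The deposited table of the series holds whole-number read counts per mature miRNA with no normalization, per the file headers. Each library also has a deposited column named exp, of whole-number counts never above its reads, whose derivation no label or header states. The deposited files of single libraries hold read counts per distinct tag of 15 to 45 nt with 1 assignment and a score, per the file headers. This score was 0 for mature and 1 for hairpin tags. The submitters' processing notes name Bowtie2 and Rnor_6.0, with neither role nor version. For miRBase and trimming, details were not given in the sources used here.

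Counts were tested with edgeR 4.0.16 (R 4.3.3), with TMM factors, filterByExpr defaults, group as the only term and 1 fit over the 9 libraries, with Benjamini-Hochberg adjustment over all 94 tested miRNAs. The common dispersion corresponds to a biological coefficient of variation of 1.42. Each SE is the absolute log2 fold change divided by the square root of F. DESeq2 1.42.0, other scalings, no filter, other ways of counting tags, left-out libraries and a replicate block were alternatives. Single values were compared with exact permutation tests (scipy 1.17.1). The recount by sequence was chosen after seeing the data. It follows 18 bases of each RefSeq mature miRNA, 182 of 201 table names being in the RefSeq table, and counts reads that the authors assigned elsewhere. Members and lists were chosen with earlier results of these data known. All members are named. For miR-92a-3p the 3 miRNAs with the highest correlation are named, and of the MYC list up to 4 with the most reads. A count of 0 was taken to allow 3 reads per library, 5.99 to 216 CPM. Intervals and floors cover counting error only, since PCR reads without molecular identifiers are not independent molecules. Scripts were tested on simulated data.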

Additional observations from a re-analysis of the deposited data

Results flagged for a closer look

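miR-92b-5p, the passenger arm of miR-92b, has no row in the miRNA table. It had 46 reads in LPS 1, all in 1 tag assigned to a hairpin, and 0 reads in every other LPS library, in the LPS+AS-IV libraries and in the Control libraries. It was noted because the reads lie outside the table used for the comparisons and above the level of the Control libraries. A count of 0 allows up to 3 reads per library, and a single tag in a single library gives no replicate check.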

How the results depend on the processing

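Members called stayed at 0 in all 3 comparisons under every alternative, including each left-out library, DESeq2 and the replicate block. Of the values under all alternatives, 306 kept their direction and side of the threshold and 36 changed sign, none of them past the threshold, and the cause was not tested. The 306 include the counts of members called, all 0, which have no direction. Values with exact permutation tests could not pass the threshold under any setting, since such tests cannot go below p = 0.1 here. For LPS against Control, miR-25-3p was 0.41 with all assigned reads, 0.29 with 0 or 1 mismatch, 0.085 with the column headed exp and 0.49 recounted by sequence. In LPS+AS-IV against LPS, miR-25-3p was 0.015 with all assigned reads, miR-92a-3p was -0.10 with 0 or 1 mismatch, -0.17 with exp and -0.22 recounted, and miR-93-5p was 1.65 with all assigned reads, 0.0089 without a filter and 0.34 with the replicate block. In LPS+AS-IV against Control, miR-25-3p was 0.43 with all assigned reads, and miR-92b-3p was -0.11 with 0 or 1 mismatch and -0.59 recounted. The log2 ratio of miR-25-3p to miR-93-5p for LPS against Control was 0.12 on the table, -0.27 with 0 or 1 mismatch, -0.065 recounted and -0.27 recounted without the 104-read tag of LPS 3. With 1 library left out, log2 fold changes for LPS against Control ran from -0.41 to 0.36 (miR-25-3p), -3.91 to 0.24 (miR-92b-3p), -0.24 to 0.98 (miR-93-5p) and 0.32 to 0.59 (miR-92a-3p). In LPS+AS-IV against LPS they ran from -1.42 to -0.95, 0.33 to 4.36, -0.74 to 0.64 and -0.26 to 0.38 in that order of miRNAs. For LPS+AS-IV against Control they ran from -1.59 to -0.68, -0.13 to 1.27, 0.11 to 0.76 and 0.34 to 0.82. The leading tag's difference for LPS against Control ran from -3.80 to 8.28 percentage points, below 0 only without Control 2, and the ratio's difference from -1.003 to 0.99, below 0 without LPS 1 (-1.003) or Control 3 (-0.62). The ratio's difference stayed below 0 in both other comparisons, at -2.54 to -0.55 for LPS+AS-IV against LPS and -2.29 to -0.96 for LPS+AS-IV against Control. Whether replicate numbers pair the libraries is not stated, and these values cannot settle it. Correlations of deviations ran from -0.085 to 0.17 for libraries of the same number and from -0.20 to 0.23 for different numbers. A library correlated best with its own number in 4 of 18 cases, and the replicate block called 2, 1 and 2 miRNAs over the 3 comparisons, against 1, 0 and 2 without it, with 0 members called. Scaling to all assigned reads moved the median of all tested miRNAs to 1.502 in LPS+AS-IV against LPS and 1.65 in LPS+AS-IV against Control, against 0.19 and 0.21 with TMM. Depth limits the sparse members: floors reached 216 CPM in LPS+AS-IV 1.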
